A study of Homo sapiens with 36 samples.

Results

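To ask what the DNA-binding end of a HIF-α protein contributes when the rest of the protein is held constant, anti-V5 Cut&Run peak lists of HIF-1α/2α cells were set against those of cells with exogenous HIF-2α. HIF-1α/2α is a chimera that joins residues 1 to 363 of HIF-1α, which bind DNA and the partner subunit (the DBD, for short), to residues 366 to 870 of HIF-2α, the intrinsically disordered region (IDR). Exogenous HIF-2α carries the same IDR on its own DBD, so the 2 proteins differ in the DBD. The lines that express them may also differ in the amount of tagged protein, which the lists do not show. The members are the 3 anti-V5 libraries labelled HIF-1α/2α and the 3 labelled HIF-2α, 6 of 36 samples and 6 of the 18 anti-V5 libraries with a peak list, taken by their labels and limited to chromosomes 1 to 22, X and Y. Both proteins carry V5 and Halo tags at the N-terminus, are driven by the L30 promoter and were integrated by PiggyBac transposition with puromycin selection into 786-O cells. 786-O is a human clear cell renal carcinoma line without working VHL, the protein that marks HIF-α for destruction, so HIF-α is stable in normal oxygen and the lines with an added construct still hold the untagged HIF-2α of the cells. Other lines give context: untagged wild-type cells (WT) for the antibody background, the homozygous knock-in clone in which the endogenous HIF-2α is itself tagged (HIF-2α KIN), and HIF-1α and HIF-2α/1α, which repeat the exchange of the DBD on the HIF-1α IDR. The labels number the replicates but do not say whether they are separate cultures, so p-values measure the spread between these libraries, which may be technical. Peak lists hold no expression values, so the cell type could not be checked by marker genes.

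The hypoxia-inducible factors are pairs of an oxygen-regulated α subunit and a stable partner, HIF-1β. The pair grips DNA through basic helix-loop-helix and PAS domains and reads the hypoxia response element (HRE), whose core is ACGTG or GCGTG on either strand. In kidney cancer cells the factors are known for switching on glucose uptake and glycolysis, blood vessel growth, acid export and lipid storage. HIF-1α is classically tied to glycolysis and HIF-2α to growth and secreted factors, although the DBDs of both isoforms accept the same core. Cut&Run releases short DNA fragments around a bound protein, and a peak is a stretch where those fragments exceed the IgG control of the same line and replicate.

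The DNA under the regions on which the results turn is shown here, read from hg38 on the plus strand, with the HRE core, or its reverse complement, in capitals, together with any further base of an overlapping match on the other strand. The first set holds regions with more signal for HIF-1α/2α or called in all HIF-1α/2α and HIF-1α libraries and in no exogenous HIF-2α or HIF-2α/1α library. MEAK7, a regulator of mTOR signalling, has its region in an intron (chr16:84501327-84501427). P4HB, the protein disulfide isomerase subunit of collagen prolyl hydroxylase (chr17:81861106-81861206), ANKRD37, an ankyrin repeat protein known to respond to hypoxia (chr4:185396613-185396713), and RAPGEF6, an exchange factor for Rap GTPases (chr5:131635600-131635700), have theirs in promoters. CA9, the cell surface carbonic anhydrase that exports acid, is shown by 29 bases of its promoter that end before the transcript (chr9:35673898-35673926).
MEAK7: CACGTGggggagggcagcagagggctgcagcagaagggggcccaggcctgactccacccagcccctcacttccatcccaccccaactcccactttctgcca
P4HB: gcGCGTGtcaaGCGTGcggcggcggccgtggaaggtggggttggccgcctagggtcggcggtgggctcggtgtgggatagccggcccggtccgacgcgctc
ANKRD37: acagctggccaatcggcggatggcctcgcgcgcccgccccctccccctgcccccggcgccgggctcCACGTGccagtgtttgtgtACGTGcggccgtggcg
RAPGEF6: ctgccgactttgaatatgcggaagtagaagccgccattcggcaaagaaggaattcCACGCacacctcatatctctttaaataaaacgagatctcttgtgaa
CA9: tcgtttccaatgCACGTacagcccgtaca

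The second set holds regions with more signal for HIF-2α, each with an HRE. They lie in introns of LMF1, a lipase maturation factor (chr16:951955-952055), WWC1, a Hippo pathway scaffold (chr5:168302339-168302439), PMP22, a myelin protein (chr17:15257657-15257757), and CACNA1C, a subunit of an L-type calcium channel (chr12:2477149-2477249).
LMF1: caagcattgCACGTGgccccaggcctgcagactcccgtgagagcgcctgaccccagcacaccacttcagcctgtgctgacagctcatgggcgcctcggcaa
WWC1: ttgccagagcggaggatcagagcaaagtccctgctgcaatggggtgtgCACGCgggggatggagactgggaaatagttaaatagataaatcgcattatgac
PMP22: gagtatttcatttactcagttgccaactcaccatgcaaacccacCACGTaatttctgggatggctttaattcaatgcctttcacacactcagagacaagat
CACNA1C: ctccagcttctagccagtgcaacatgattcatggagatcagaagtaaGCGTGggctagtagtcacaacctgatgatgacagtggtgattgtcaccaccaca

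The last example is an intronic region called for HIF-2α and in no HIF-1α/2α library, shown because it holds no HRE within 50 bp of the summit but TGTGGT, the letters searched for RUNX factors, or its reverse complement, which is in capitals. It lies in RUVBL1, an ATPase of chromatin remodelling complexes (chr3:128080541-128080641). Windows of 101 bases are centred on the summit of the peak that ranked highest within its list, among the HIF-1α/2α and HIF-2α lists. The summit may thus come from either line. A match is a description of letters, not proof of a bound site.
RUVBL1: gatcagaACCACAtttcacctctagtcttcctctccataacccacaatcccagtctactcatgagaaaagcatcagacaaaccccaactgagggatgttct

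The lists were first compared for length and depth. HIF-1α/2α gave 13060, 18999 and 11679 peaks in replicates 1, 2 and 3, and HIF-2α gave 6590, 20651 and 5906. HIF-2α replicate 2 was thus both the longest and over 3 times the length of its sister lists, and the groups overlapped. Depth, inferred from the lists as the genome-wide mean of fragments per base, was 0.410, 0.284 and 0.303 for HIF-1α/2α and 0.327, 0.536 and 0.253 for HIF-2α, with HIF-2α replicate 2 the deepest. On the log2 scale the HIF-1α/2α lists were longer by 0.62 on average and the libraries shallower by 0.11, neither beyond the spread (two-sided exact permutation p = 0.4 and p = 0.8). With 3 against 3 libraries this test has 20 relabellings and cannot go below 0.1, and adjusted over the 11 tests fixed for this comparison the smallest p was 0.69. The 3 WT lists held 392, 9508 and 743 peaks. The lists say nothing of the amount of tagged protein, so more protein and stronger binding per molecule cannot be told apart. Because list length is part of every comparison below, the lists were also cut to their 5906 strongest peaks by p-value, the length of the shortest list. The cut left HIF-2α replicates 1 and 3 nearly whole and shortened HIF-2α replicate 2 and every HIF-1α/2α list much more. Comparisons at equal length thus set the stronger part of the HIF-1α/2α lists against nearly whole lists of those HIF-2α replicates.

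A larger share of HIF-1α/2α peaks than of HIF-2α peaks lay at promoters once the lists had equal length, while full lists overlapped (plot of the lists by library). Peaks were called promoter peaks where a protein-coding gene starts (TSS) no more than 1 kb from the summit. In full lists 29.3%, 24.3% and 28.5% of HIF-1α/2α peaks and 25.1%, 25.2% and 25.3% of HIF-2α peaks were promoter peaks. The 3 HIF-2α lists were nearly identical, and HIF-1α/2α lay above them in replicates 1 and 3 and below them in replicate 2 (27.4 ± 2.68% against 25.2 ± 0.0693%, mean ± SD, n = 3 each, exact permutation p = 0.4). At equal length the shares were 30.7%, 28.1% and 29.3% for HIF-1α/2α and 26.3%, 27.6% and 25.3% for HIF-2α. Each HIF-1α/2α list was above each HIF-2α list, by 3.01 percentage points on average, with the smallest p the design allows (exact permutation p = 0.1). Between libraries of the same number the difference was 4.42, 0.559 and 4.05 points. It was smallest in replicate 2, where the HIF-2α list too had been much shortened. Over the 78 measures compared in this way, full and equal length together, a p of 0.1 becomes 0.41 after Benjamini-Hochberg adjustment.

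The rest of the genome mirrored this. Distal peaks, with a summit over 10 kb from every TSS, made up 53.4 ± 2.72% of full HIF-1α/2α lists and 55.8 ± 0.347% of HIF-2α lists (exact permutation p = 0.4). At equal length they made up 51.6 ± 0.811% and 54.6 ± 1.03%, with no overlap (exact permutation p = 0.1). Remote peaks, over 100 kb away, made up 13.1 ± 0.157% and 14.9 ± 0.772% of the lists of equal length, again with no overlap. Intergenic peaks were fewer for HIF-1α/2α in full lists (34.0 ± 1.43% against 36.0 ± 0.332%) and at equal length (32.8 ± 0.495% against 34.8 ± 1.09%), and the groups did not overlap in either (exact permutation p = 0.1, n = 3 each). WT lists, the background of the antibody, held 2.55% to 13.1% promoter peaks.

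**Figure D1:**
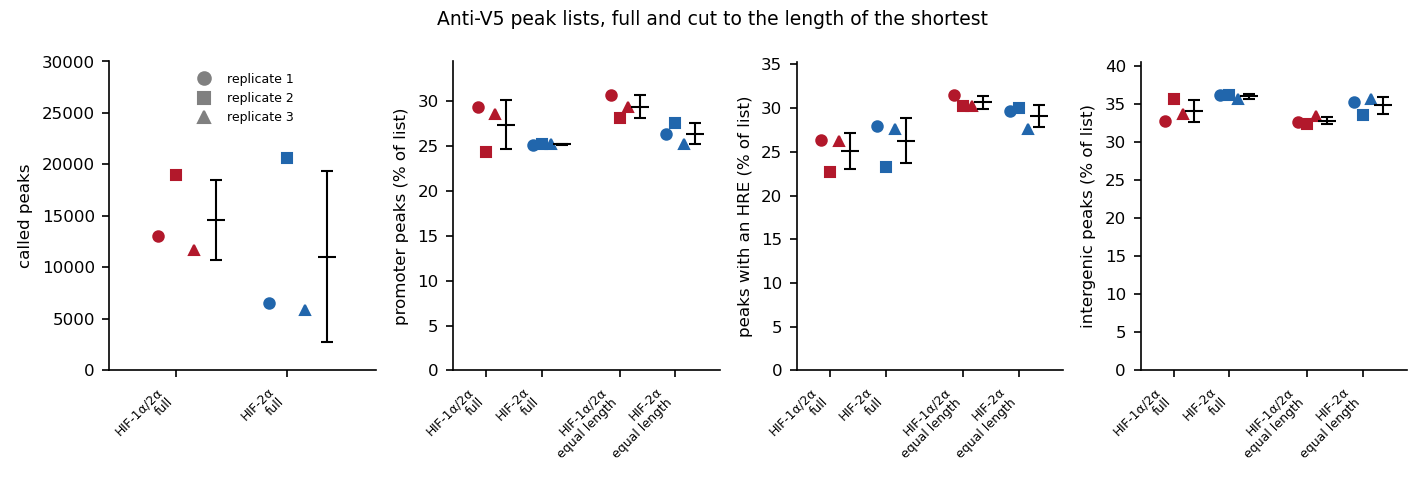
Number of called peaks and percent of peaks that are promoter peaks, hold an HRE within 50 bp of the summit or are intergenic, for each library (points, shaped by replicate) of HIF-1α/2α (red) and HIF-2α (blue), in full lists and in the 5906 strongest peaks. Black bars give mean ± SD of 3 libraries, and at equal length the 3 red points lie above the 3 blue points for promoter peaks and HREs and below them for intergenic peaks.

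Next, the sequence at the summits was compared. HREs were found within 50 bp of 26.3%, 22.7% and 26.2% of HIF-1α/2α summits and 27.9%, 23.3% and 27.6% of HIF-2α summits in full lists. After subtraction of the share in windows 1 kb to each side, the HRE excess was 11.0 ± 1.60 and 12.2 ± 2.35 percentage points (exact permutation p = 0.5), against −3.70 to 1.55 in the 3 WT lists. Both proteins thus had a clear HRE excess, and it did not separate them. At equal length the sign turned, with an HRE excess of 16.1 ± 0.872 and 14.8 ± 1.5 (exact permutation p = 0.5). The plain share with an HRE was then 31.5%, 30.2% and 30.2% for HIF-1α/2α and 29.7%, 30.0% and 27.6% for HIF-2α, without overlap (exact permutation p = 0.1). The part of this in promoters was separate too, with an HRE excess of promoter peaks of 27.5 ± 1.35 against 25.2 ± 0.867 points (exact permutation p = 0.1), whereas the excess of distal peaks was 11.7 ± 0.530 against 11.6 ± 1.57 (exact permutation p = 1.0).

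Letters of other factors were searched in the same way. AP-1, the Fos and Jun dimers that mark active enhancers, was searched as TGACTCA or TGAGTCA and had an excess of 6.03 ± 0.782 points in HIF-1α/2α and 6.54 ± 0.569 in HIF-2α lists (exact permutation p = 0.5). Among distal peaks of equal-length lists it was 10.7 ± 0.831 against 9.08 ± 0.852, without overlap (exact permutation p = 0.1). SP/KLF factors bind GC boxes of promoters, and their letters GGGCGG had an excess of 10.1 ± 1.05 points for HIF-1α/2α and 7.59 ± 0.532 for HIF-2α at equal length, without overlap (exact permutation p = 0.1). In full lists the values were 8.56 ± 1.57 and 7.33 ± 0.308, with HIF-1α/2α replicate 2 below every HIF-2α list, and WT lists had 0.255 to 6.19. GC content within 50 bp of the summit was 55.3 ± 0.630% and 53.9 ± 0.925% at equal length, also without overlap. Between libraries of the same number the equal-length differences were 3.16, 1.19 and 3.09 points for SP/KLF and 1.85, 0.114 and 2.33 for GC content. The opposite order was seen for RUNX, the factors whose letters TGTGGT had an excess of 1.64, 1.47 and 1.71 points in full HIF-1α/2α lists and 2.61, 2.18 and 2.35 in HIF-2α lists. Those groups did not overlap (difference of −0.77, exact permutation p = 0.1), but at equal length they did (2.32 ± 0.123 against 2.57 ± 0.188, exact permutation p = 0.2). The RUNX excess of the 3 WT lists was −0.383, 1.24 and 5.72, a range that holds both lines.

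The HRE itself was then split by its first base. Among full-list peaks with an HRE, ACGTG was present in 51.1%, 49.6% and 51.4% for HIF-1α/2α and in 57.6%, 51.6% and 57.7% for HIF-2α. GCGTG was present in 57.7%, 58.0% and 57.2% for HIF-1α/2α and in 54.2%, 56.4% and 52.7% for HIF-2α. Every HIF-2α list leaned further to ACGTG than every HIF-1α/2α list, and a peak can hold both. At equal length the ACGTG shares were 53.6 ± 0.495% and 57.4 ± 0.918%, a difference of −3.85 percentage points, and the GCGTG shares were 56.3 ± 0.684% and 53.7 ± 0.842%. None of these groups overlapped (exact permutation p = 0.1, adjusted p = 0.28 over 28 such comparisons). For the same exchange of the DBD on the HIF-1α IDR, ACGTG was present in 50.5 ± 1.41% of HIF-1α and 52.2 ± 0.581% of HIF-2α/1α peaks with an HRE at equal length, a difference of −1.78 points with overlapping groups (exact permutation p = 0.2).

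Sites of endogenous HIF-2α, defined as regions called in at least 2 of 3 HIF-2α KIN libraries, were used to ask whether a DBD of the other isoform leaves those sites in reach. HIF-1α/2α lists called 82.0%, 89.4% and 80.8% of them and HIF-2α lists 66.2%, 94.3% and 60.9%. HIF-2α replicate 2 was highest and its sister libraries lowest (84.1 ± 4.64% against 73.8 ± 18.0%, exact permutation p = 0.4). At equal length the shares were 65.5 ± 1.99% and 65.7 ± 5.34%, so that the difference shrank to −0.22 percentage points (exact permutation p = 1.0). WT lists called 0.574% to 26.2%. The Jaccard index, the shared fraction of the regions that 2 lists hold together, averaged 0.393 within HIF-1α/2α, 0.285 within HIF-2α and 0.318 between the lines. Pairs within a line exceeded pairs between the lines by 0.0217, which was within the spread (exact permutation p = 0.7). At equal length the averages were 0.550, 0.460 and 0.454, and the excess of 0.0503 had the smallest p the design allows (exact permutation p = 0.1). The effect of the DBD also did not differ past the threshold from its effect on the HIF-1α IDR for any of 7 measures, peak number, promoter, distal and endogenous shares, HRE and AP-1 excess and GC content (two-sided exact permutation p of 0.235 to 0.735 over 400 relabellings).

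To find sites taken by 1 protein, peaks of all 18 lists were merged into regions, and 14843 regions called in at least 2 of the 6 libraries and in fewer than 2 WT libraries were kept. HIF-1α/2α alone, called in 3 of 3 libraries of that line and 0 of 3 of the other, held 296 regions (1.99% of 14843), HIF-2α alone held 28 (0.189%), and 2793 were called in all 6. The longest list decides the first count, since without HIF-2α replicate 2 it was 1858. Leaving out replicate 1, 2 or 3 of HIF-1α/2α gave 738, 509 and 794. The second count became 50 or 80 when replicate 1 or 2 of HIF-1α/2α was dropped, and 192 or 197 when replicate 1 or 3 of HIF-2α was dropped. At equal length 274 of 6875 regions (3.99%) were called for HIF-1α/2α alone and 101 (1.47%) for HIF-2α alone. Regions that were among the 5906 strongest peaks of every library of 1 line and in no full list of the other numbered 48 for HIF-1α/2α and 10 for HIF-2α, a criterion chosen after seeing the data. These counts have no test, since 3 against 3 calls of a single region cannot go below 0.1.

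The place and motifs of the regions of 1 line were then described. Of the 296 of HIF-1α/2α alone, 34.8% were promoter regions and 25.0% held an HRE, against 30.4% and 26.3% of all 14843, and 6.08% held TGTGGT, against 8.68%. GGGCGG was in 19.3% against 14.5%, and an AP-1 match in 5.41% against 8.32%. Any KIN library called 25.3% of the 296 and 28.6% of the 28 regions of HIF-2α alone, against 53.1% of all regions. At equal length these shares were 46.4% of the 274 and 68.3% of the 101, against 76.6% of all 6875. Of the 28 regions of HIF-2α alone, 4 (14.3%) were promoter regions, 7 (25.0%) held an HRE and 7 (25.0%) held TGTGGT. At equal length TGTGGT was in 15 of the 101 (14.9%) and in 22 of the 274 (8.03%), against 9.03% of all 6875. Of the 274, 28.5% were promoter regions, 11.7% held an AP-1 match and 17.2% GGGCGG, against 29.6%, 8.93% and 14.3% of all 6875. The promoter and AP-1 differences of HIF-1α/2α alone thus turned sign at equal length. The 8 regions of HIF-1α/2α alone that ranked highest within their lists held no HRE. They lay nearest to PMFBP1, ICE1, CDH2, EVX2, ZC3HC1, PHF19, TASOR2 and IRX1, and only that of TASOR2, a homologue of the HUSH silencing subunit TASOR, was at a promoter. The strongest, 195 kb from PMFBP1 (194843 bp, chr16:72371259-72372202), had 52, 93 and 60 fragments at its summit in HIF-1α/2α replicates 1, 2 and 3. The region in an intron of CDH2, which encodes N-cadherin, had 37, 54 and 37 fragments (chr18:28150039-28151673). Of the 8 highest of HIF-2α alone, 7 lay nearest to TENM2, PLEKHA6, RUVBL1, BCL11B, RNF168, ARGLU1 and SCOC, none at a promoter, and 2 of the 7 held an HRE. The RUVBL1 region had 13, 62 and 19 fragments in HIF-2α replicates 1, 2 and 3, with the highest value in the deepest library.

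The other pair of lines gives the same exchange of the DBD in libraries that did not choose these regions (plot of calls by HIF-1α and HIF-2α/1α). Of the 296 regions of HIF-1α/2α alone, HIF-1α libraries called 62.8%, 81.4% and 68.9% and HIF-2α/1α libraries 51.0%, 63.2% and 27.4%. The line that shares the DBD called more of them (71.1 ± 9.47% against 47.2 ± 18.2%), with a slight overlap between the groups (exact permutation p = 0.2). HIF-2α KIN libraries called 1.69%, 17.6% and 11.5%, and WT libraries 0%, 8.11% and 0%. Of the 28 regions of HIF-2α alone, HIF-1α libraries called 46.4%, 67.9% and 28.6% and HIF-2α/1α libraries 78.6%, 92.9% and 67.9%. Here too the line with the matching DBD called more (47.6 ± 19.7% against 79.8 ± 12.5%, exact permutation p = 0.2). HIF-2α KIN libraries called 10.7%, 10.7% and 25.0% of these 28, and WT libraries 0%, 3.57% and 0%.

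At equal length these groups no longer overlapped. HIF-1α libraries called 64.6%, 71.2% and 64.6% of the 274 regions and HIF-2α/1α libraries 35.8%, 33.9% and 32.5%, a difference of 32.7 percentage points (66.8 ± 3.79% against 34.1 ± 1.65%, exact permutation p = 0.1). Of the 101 regions of HIF-2α alone, HIF-1α libraries called 35.6%, 43.6% and 39.6% and HIF-2α/1α libraries 48.5%, 64.4% and 57.4%, a difference of −17.2 points (exact permutation p = 0.1). Each is the smallest p that 3 against 3 can give and is 0.41 after adjustment over the 78 measures.

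**Figure D2:**
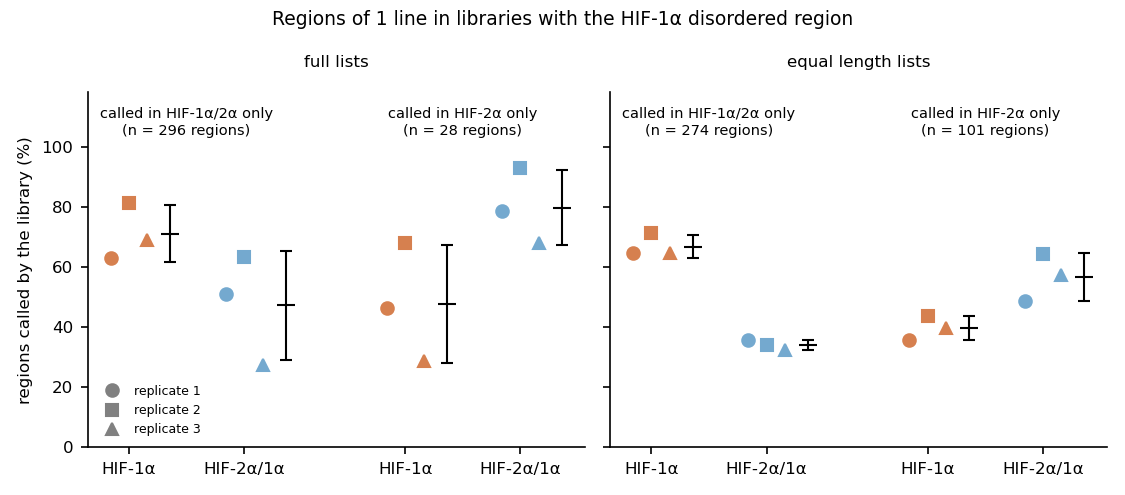
Percent of the regions called in HIF-1α/2α alone or in HIF-2α alone that each HIF-1α library (orange) and each HIF-2α/1α library (light blue) calls, for full lists (left) and lists of equal length (right), with mean ± SD of 3 libraries in black. In each panel the mean is higher for the line that carries the matching DBD, and at equal length the 3 points of each pair do not overlap.

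Few regions followed the DBD in all 12 exogenous libraries. Of the 296, 17 (5.74%) were called in 3 of 3 HIF-1α and 0 of 3 HIF-2α/1α libraries and 0 showed the reverse, while among all 14843 regions 128 (0.862%) and 91 (0.613%) showed these patterns. The CA9 promoter was among the 17. Its region (chr9:35673555-35674772), with a summit 15 bp from the TSS and an HRE, had 16, 26 and 22 fragments in HIF-1α/2α and 25, 46 and 20 in HIF-1α replicates 1, 2 and 3, and no peak in any HIF-2α or HIF-2α/1α library. One KIN library called it. Promoters of RAPGEF6 (43, 58 and 34 fragments in HIF-1α/2α), CBX5, the heterochromatin protein HP1α (17, 69 and 41), and MTERF4, a mitochondrial ribosome assembly factor (8, 29 and 22), behaved likewise, as did introns of RUNX3, CDH2, PCSK5 and KDM4C and an exon of ISLR2. Of the 28, 4 (14.3%) were called in 3 of 3 HIF-2α/1α and 0 of 3 HIF-1α libraries and 0 the other way, the promoter of CCDC138, an exon of VGF, which encodes a secreted neuropeptide precursor, an intron of KCNH3 and a region 23431 bp from BZW2. They were weak, with 8, 33 and 10 fragments at CCDC138 in HIF-2α replicates 1, 2 and 3. Of the KIN libraries 0 called any of these 4, and 1 WT library called that of VGF. All of these regions were called by the rule above, so the absence of a peak is not proof that the protein was absent.

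At the level of genes, 7338 protein-coding genes had a promoter peak in any of the 6 libraries. HIF-1α/2α alone held 107 (1.46%) and HIF-2α alone 6 (0.0818%), with 865 in all 6, and without HIF-2α replicate 2 the first count was 732. Leaving out replicate 1, 2 or 3 of HIF-1α/2α gave 238, 183 and 274. The second count was 15 and 23 when replicate 1 or 2 of HIF-1α/2α was dropped and 48 and 40 when replicate 1 or 3 of HIF-2α was dropped. At equal length 85 of 3654 genes (2.33%) were of HIF-1α/2α alone and 28 (0.766%) of HIF-2α alone. Here alone refers to the strongest peaks only, since most genes of either set had a promoter peak in a full list of the other line. DAD1 and TSKU, of the 28, had a promoter peak in 3 of 3 full HIF-1α/2α lists. The 6 were ADM, AFAP1L1, CCDC138, IPPK, PKD1 and ZNF703, named here because they are so few. ADM encodes adrenomedullin, a vasodilator peptide known as a hypoxia target, and its promoter peak was called in 3 of 3 KIN, 3 of 3 HIF-2α/1α and 2 of 3 HIF-1α libraries. The strongest region near ADM, 2830 bp from the TSS, was in contrast called in all 6 libraries. Among the 107, chosen after their values were seen, were CA9, TXNIP, the thioredoxin inhibitor, the immediate early gene EGR1, the insulin-regulated glucose transporter SLC2A4 and EPAS1, which encodes HIF-2α itself. The EPAS1 promoter was called in 3 of 3 HIF-1α and 2 of 3 HIF-2α/1α libraries and in 0 KIN and 0 WT libraries. RefSeq promoters of 300 bases (GRCh38.p14), from 250 before to 50 after the start, were searched for an HRE core. A gene symbol was counted if any of its promoters held one. This was so for 52.4% of all 27305 symbols, which were not limited to genes with a peak. It was so for 72 of the 87 matched genes of HIF-1α/2α alone (82.8%), 5 of 5 of HIF-2α alone and 600 of 712 in all 6 (84.3%). For the genes of equal-length lists it was 52 of 72 (72.2%) for HIF-1α/2α alone and 19 of 22 (86.4%) for HIF-2α alone.

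Finally, the strength of binding was compared at the 2793 regions called in all 6 libraries, with limma on the log2 of the deposited fold enrichment over background, each library centred on its median. In all, 50 regions (1.79%) passed an adjusted p of 0.05, of which 36 (1.29%) were higher in HIF-1α/2α and 14 (0.501%) higher in HIF-2α. The groups did not overlap at 411 regions (14.7%), 312 had an unadjusted p below 0.05, and the median absolute difference over all regions was 0.38 on the log2 scale. The spread between libraries was wide, with correlations across regions of 0.630 to 0.694 within a line and 0.557 to 0.638 between lines, a description over regions that share the DNA and no replicate of each other. Fewer regions were called with any library left out: dropping replicate 1, 2 or 3 of HIF-1α/2α gave 21, 7 and 25 regions higher in HIF-1α/2α and 4, 2 and 5 higher in HIF-2α. Dropping replicate 1, 2 or 3 of HIF-2α gave 22, 24 and 24 regions and 6, 3 and 6 regions. The deposited fold divides by a background that the IgG library helps to set. With the fragments at the summit in its place, which leave the background out, 243 regions (8.7%) were higher in HIF-1α/2α and 175 (6.27%) in HIF-2α, and these included 41 of the 50.

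The regions with the smallest p on the HIF-1α/2α side were far above HIF-2α in fold enrichment (plot of 19 regions by library). At MEAK7 (chr16:84501127-84502242, intron, 3244 bp from the TSS) the fold enrichment was 56.9, 67.3 and 46.3 in HIF-1α/2α and 9.06, 8.75 and 5.20 in HIF-2α replicates 1, 2 and 3. By this fold every HIF-1α/2α library was at least 5 times above every HIF-2α library, and the centred log2 difference was 2.67 ± 0.48 (SE, limma adjusted p = 0.000278). The summit fragments were closer, with 109, 176 and 102 against 21, 96 and 19 and a centred log2 difference of 1.72 ± 0.19. At the P4HB promoter (chr17:81860452-81861826) the fold was 40.9, 46.5 and 52.3 against 9.59, 9.92 and 6.63, a log2 difference of 2.19 ± 0.48 (limma adjusted p = 0.00268). Both hold an HRE and were called in 3 of 3 KIN libraries, and the other 8 of the 10 hold none within 50 bp. Those were nearest to MAF, a leucine zipper factor, ARHGAP26, a GTPase-activating protein, SEPTIN9, a cytoskeletal GTPase (promoter), VGLL4, a TEAD cofactor, PINK1, a mitophagy kinase, GTF2IRD1, ST3GAL5, the GM3 ganglioside synthase, and ERI1, an RNA exonuclease. Their log2 differences were 2.16 to 2.36. None of the 10 overlapped between the lines in centred fold, the values by which they were chosen. By summit fragments the centred log2 differences of the 10 ran from 1.33 at SEPTIN9 to 2.81 at ST3GAL5. The SEPTIN9 fragments overlapped before centring, with 108, 232 and 132 in HIF-1α/2α and 29, 181 and 28 in HIF-2α. The region in ST3GAL5 had 169, 286 and 112 fragments in HIF-1α/2α and 17, 41 and 16 in HIF-2α, and 0 KIN libraries called it. Each region is named by the nearest protein-coding TSS, which need not be the gene it acts on.

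On the HIF-2α side differences were smaller. At LMF1 (chr16:951185-952679, intron) the fold was 10.1, 26.5 and 9.44 in HIF-1α/2α and 33.7, 152 and 28.1 in HIF-2α replicates 1, 2 and 3, a log2 difference of −2.19 ± 0.48 (limma adjusted p = 0.00268). The groups were apart, although HIF-1α/2α replicate 2 came close to HIF-2α replicate 3. The limma adjusted p at LMF1 was 0.0622 once the deepest HIF-2α library was left out. The other 8 were WWC1, CRKL, an adaptor of kinase signalling (promoter), SLC26A1, a sulfate transporter (promoter), PMP22, CST6, a cysteine protease inhibitor, CACNA1C, SEPHS2, a selenophosphate synthetase (promoter), and BACH1, a heme-regulated repressor, with log2 differences of −1.93 to −1.54. Of these 9, 4 hold an HRE, LMF1, WWC1, PMP22 and CACNA1C, and 8 were called in 3 of 3 KIN libraries. That was common, since at least 2 KIN libraries called 82.7% of all 2793 regions. They called 80.6% of the 36 higher in HIF-1α/2α and 78.6% of the 14 higher in HIF-2α. By summit fragments WWC1, CRKL, PMP22, CST6 and BACH1 did not pass the threshold, with log2 differences of −0.65, −0.21, −0.52, −0.33 and −0.27.

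**Figure D3:**
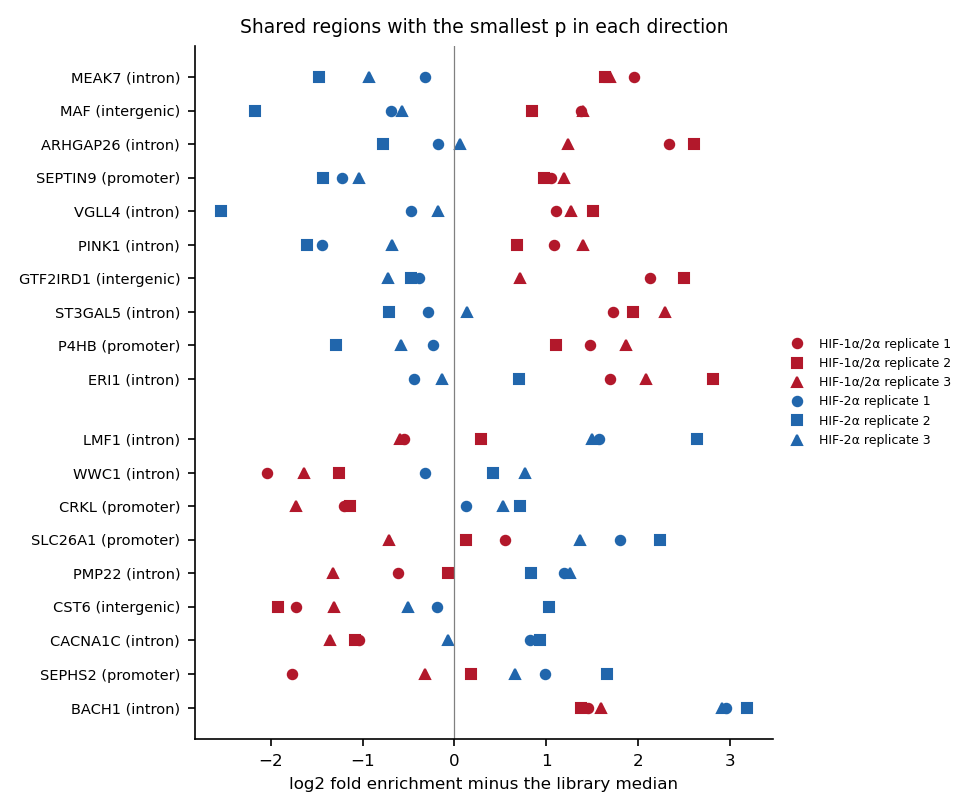
Log2 fold enrichment minus the library median at 19 regions with the smallest p, 10 higher in HIF-1α/2α and 9 higher in HIF-2α, named by the nearest gene, for each library of HIF-1α/2α (red) and HIF-2α (blue), with replicates by shape. The lines do not overlap at any of the 19 after centring, but the regions were chosen by these same values. The mean difference between the lines runs from 2.16 to 2.67 in the upper 10 and from −2.19 to −1.54 in the lower 9.

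What these regions share beyond the measure that chose them was then described. Of the 36 regions higher in HIF-1α/2α, 27.8% were promoter regions, 25.0% held an HRE, 16.7% an AP-1 match and 0 the RUNX letters, against 27.8%, 31.6%, 9.49% and 9.09% of all 2793. Of the 14 higher in HIF-2α, 28.6% were promoter regions, 42.9% held an HRE and 14.3% the RUNX letters. These sets are small, so a single region moves their shares by several points. The sets by summit fragments were larger, and their HRE shares stood in the reverse order. Of the 243 higher in HIF-1α/2α, 30.9% were promoter regions, 33.3% held an HRE, 17.3% the SP/KLF letters and 6.58% the RUNX letters, and the median GC content was 57.4%. Of the 175 higher in HIF-2α, 14.3% were promoter regions and 68.0% lay over 10 kb from a TSS, 24.0% held an HRE, 3.43% the SP/KLF letters and 13.7% the RUNX letters, and the median GC content was 49.5%. Over all regions the SP/KLF share was 13.7% and the median GC content 54.5%. GC content moved with the signal here, and its part in the result was not tested.

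The 6 libraries with the HIF-1α IDR, which took no part in this choice, were measured at the same regions where they called them. For the 35 regions higher in HIF-1α/2α that all 6 called, the median centred log2 fold was 0.76, 1.07 and 0.72 in HIF-1α and −0.03, −0.42 and 0.00 in HIF-2α/1α replicates 1, 2 and 3. The 3 libraries with the HIF-1α DBD were thus all above the 3 with the HIF-2α DBD. HIF-1α exceeded HIF-2α/1α at 32 of these 35 regions, against 1246 of 2566 regions (48.6%) in all, with a median difference of 0.93. For the 13 regions higher in HIF-2α the medians were −0.33, −0.15 and −0.32 in HIF-1α and 0.04, 0.50 and 0.61 in HIF-2α/1α, the reverse order, and HIF-1α was below HIF-2α/1α at 12 of the 13, with a median difference of −0.42. In the sets by summit fragments HIF-1α was above at 195 of 235 and below at 125 of 151 regions. Over all 2566 regions the effects of the DBD on either IDR had a Pearson correlation of 0.365 and a Spearman correlation of 0.327 (plot of both exchanges), a description across regions that share their sequence and mappability.

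**Figure D4:**
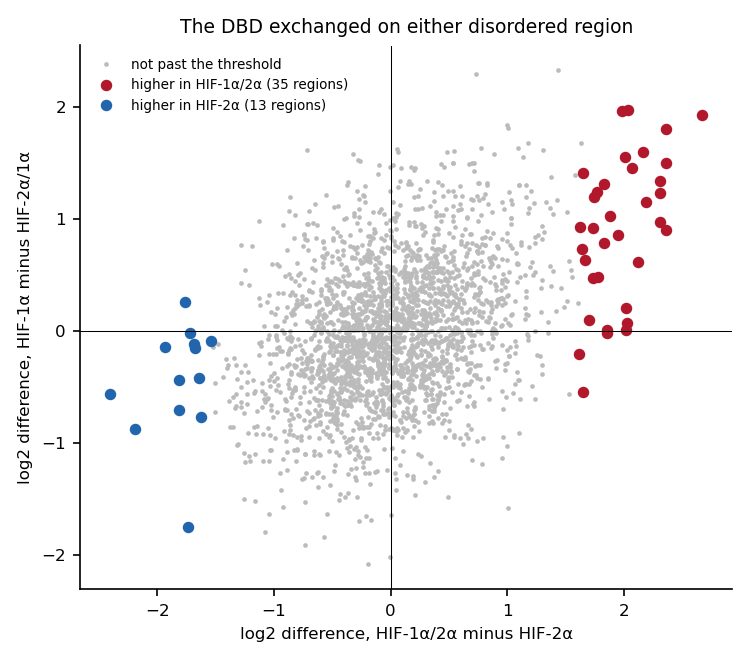
Log2 difference in fold enrichment for HIF-1α/2α minus HIF-2α (x axis, HIF-2α IDR) and HIF-1α minus HIF-2α/1α (y axis, HIF-1α IDR) at 2566 regions called in all 12 libraries. The 35 regions past the threshold on the x axis for HIF-1α/2α (red) lie above 0 on the y axis in 32 cases, and the 13 for HIF-2α (blue) lie below 0 in 12.

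Classical hypoxia genes were looked up in lists of 71 genes, each by its strongest region within 10 kb of the TSS (plot of the hypoxia genes). A region was found for 67, and for 45 it was called in all 6 libraries and could be compared. ALDOC, FLT1, CXCR4 and PLXNA2 had none. By fold enrichment 2 of 45 were higher in HIF-1α/2α and 0 in HIF-2α, against 1.29% and 0.501% of all regions. The median difference by fold was 0.17 on the log2 scale against −0.03 over all 2793 regions, and 28 of 45 were above 0, against 1339 of 2793. By summit fragments the median was 0.07 against −0.06, and 23 of 45 were above 0, against 1256 of 2793. One of the 2 past the threshold by fold was PFKFB3, whose enzyme sets the glycolytic activator fructose-2,6-bisphosphate (chr10:6200126-6205986, intron, 1079 bp from the TSS). Its fold was 81.4, 98.2 and 53.1 in HIF-1α/2α and 18.0, 29.6 and 13.9 in HIF-2α, without overlap (log2 difference of 1.70 ± 0.47, limma adjusted p = 0.0321). The other was the promoter of ANKRD37 (chr4:185395181-185397844), with 111, 65.8 and 62.0 against 24.0, 36.2 and 6.64 (1.85 ± 0.48, limma adjusted p = 0.0183). With fewer libraries these calls were lost while the differences stayed above 1. PFKFB3 did not pass once any of the 6 was left out (limma adjusted p of 0.0534 to 0.175), with log2 differences of 1.55 to 1.84. ANKRD37 did not pass without HIF-1α/2α replicate 1 or 2 or HIF-2α replicate 3 (limma adjusted p of 0.2, 0.0544 and 0.213), with log2 differences of 1.38 to 2.16. For HIF-1α minus HIF-2α/1α the log2 difference was 0.10 at PFKFB3 and −0.02 at ANKRD37.

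By group, 19 of the 21 glucose uptake and glycolysis genes were compared, with a median difference by fold of 0.28, 14 of 19 above 0 and 1 past the threshold. The median by summit fragments was 0.29, with 11 of 19 above 0. By summit fragments 4 of the 19, HK2, PFKFB3, PFKP and ENO1, were higher in HIF-1α/2α and 0 in HIF-2α, against 8.7% and 6.27% of all regions. ENO1 encodes the glycolytic enolase, and its promoter had 280, 419 and 180 fragments in HIF-1α/2α and 59, 250 and 42 in HIF-2α, where the deepest HIF-2α library overlapped the other line before centring (centred log2 difference of 1.53 ± 0.18, limma adjusted p = 1.22e-06). HK2 encodes the hexokinase that starts glycolysis, and its promoter had 121, 137 and 100 against 33, 119 and 27 fragments, with the same overlap (1.15 ± 0.20, limma adjusted p = 0.00013). Among angiogenic and secreted factors 0 of 6 passed by either measure, VEGFA included, whose promoter difference was 1.10 ± 0.46 by fold (limma adjusted p = 0.3) and 0.29 by fragments. Of 6 demethylases and collagen hydroxylases, KDM4C and PLOD1 were higher in HIF-1α/2α and P4HA1 higher in HIF-2α by fragments, and none passed by fold. In the list of pH control, mitophagy and stress, DDIT4, an mTOR inhibitor, and ANKRD37 were higher in HIF-1α/2α by fragments among 7. BHLHE41, a circadian repressor, was higher in HIF-1α/2α by fragments in the list of growth, lipid and circadian genes, where 3 could be compared, and CITED2, the only one of 10 oxygen sensing genes that could be compared, passed by neither measure.

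Of the loci that the study displays, 4 could be compared, PGK1, PPFIA4, PTPRN and HSD3B7, and none passed by fold. The region compared is the strongest near the TSS and need not be the element that the study displays. For HSD3B7 the study names an enhancer, while the region compared here lay 898 bp from the TSS. HSD3B7, a bile acid synthesis enzyme, went opposite ways by the 2 measures. Its fold was 53.7, 35.1 and 33.3 in HIF-1α/2α and 18.3, 39.9 and 12.8 in HIF-2α (log2 difference of 0.67 ± 0.48, limma adjusted p = 0.68), whereas its fragments numbered 86, 120 and 73 against 87, 441 and 85 (−0.87 ± 0.18, limma adjusted p = 0.000934). CCND1, the G1 cyclin D1, had a promoter region called in 3 of 3 HIF-1α/2α libraries and 1 of 3 HIF-2α libraries, but in 0 of 3 HIF-1α libraries. Over the 71 genes 53 had their region called in 3 of 3 HIF-1α/2α libraries and 46 in 3 of 3 HIF-2α libraries. Among all 14843 regions 6223 (41.9%) and 3178 (21.4%) were called so, which leans to the same line.

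**Figure D5:**
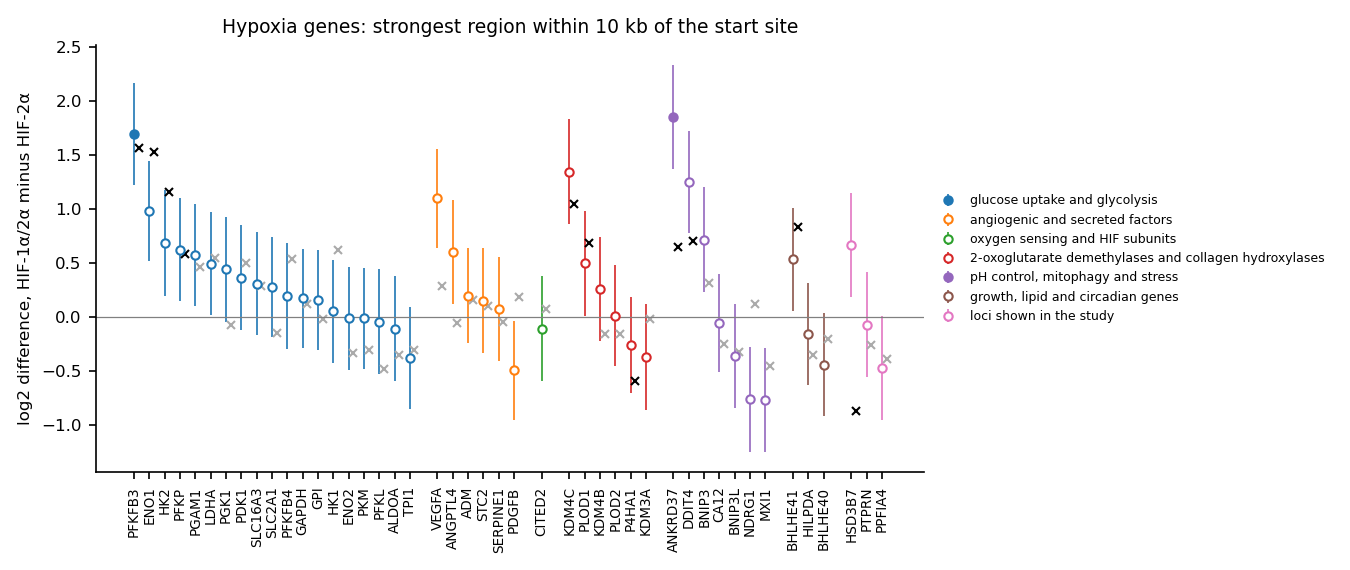
Log2 difference, HIF-1α/2α minus HIF-2α, at the strongest region within 10 kb of the TSS of 45 hypoxia genes, by list. Circles give the difference in fold enrichment with its SE (filled where the limma adjusted p is below 0.05, at PFKFB3 and ANKRD37), and crosses the difference in summit fragments (black where past the threshold, 9 above 0 and 2 below).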

How the data were processed

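Cut&Run fragments from anti-V5 and IgG libraries had been aligned by the authors to hg38 with bowtie2 2.3.4.1 in local mode and handled with SAMtools 1.8, and peaks were called with MACS2 (q-value of 0.01, duplicates kept, no pooling of replicates), each anti-V5 library against the IgG library of its line and replicate. Blacklisted regions had been removed with bedtools 2.28.0. The deposited lists hold each peak's position, its fold enrichment over local background (a ratio) and the −log10 p and −log10 q as given by the authors. At a fixed q-value the number of peaks can depend on depth, so a region without a peak is not shown to be unbound. List length did not simply follow the inferred depth. HIF-1α/2α replicate 2 was the shallowest of its line (0.284 fragments per base) and had its longest list. WT replicate 2 (0.280) held 9508 peaks and WT replicate 1 (0.302) held 392. Depth and summit fragments are not stated in the lists and were worked out from the fold and −log10 p as deposited, with whole fragments matching 100% of peaks within 0.001 in 17 libraries. In HIF-2α/1α replicate 2 the pileup was scaled, and its depth was not used.

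Regions were merged over the 18 lists (overlap of 1 bp or more), and genes were taken from GENCODE release 44. Motif letters were sought on either strand, up to 50 bp from each summit. Group means were compared with two-sided exact permutation tests, and strength with limma 3.58.1 (lmFit and eBayes with trend, Benjamini-Hochberg adjustment over all 2793 regions) in R 4.3.3. The remaining work used Python 3.11.15, NumPy 2.4.6, pandas 2.3.3 and SciPy 1.17.1, and matplotlib 3.10.9 for plots. Scripts were tested on simulated data. Regions past the threshold were named by the 10 smallest p in each direction, regions of 1 line by the 8 highest median ranks, and gene lists in full. A few items that these rules pick are not reported here. The members, gene lists and motifs were chosen with earlier results of these data known. Alternatives were equal list length, a stricter −log10 q of 5, other promoter and motif widths, other normalizations, summit fragments, the replicate block and leaving out each library. IgG libraries entered only through the peak calls.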

Additional observations from a re-analysis of the deposited data

How the results depend on the processing

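Results that turned sign or moved under another setting were the following. At equal list length the difference (HIF-1α/2α minus HIF-2α) in HRE excess turned to 1.26, in AP-1 excess to 0.593 and in the endogenous region share to −0.218, and the log2 difference at HSD3B7 turned to −0.87 with summit fragments. Regions of HIF-2α alone became 101 at equal length, regions of strong peaks absent from the other line's full lists 48 and 10, and, without replicate 2 of both lines, a setting chosen after seeing the data, 2377 and 92 regions were of HIF-1α/2α and HIF-2α alone. Promoter genes of HIF-2α alone became 28 at equal length and 2 at a −log10 q of at least 5. Summit fragments gave 243 and 175 stronger regions. The cause was not tested.

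Leaving out each library gave ranges of 0.289 to 1.19 for log2 peak number, 1.22 to 3.72 for promoter and −3.94 to −1.51 for distal share, −2.53 to −0.272 for HRE and −0.811 to −0.0694 for AP-1 excess, −0.43 to 1.09 for GC content, 3.81 to 20.5 for endogenous share and −0.0126 to 0.105 for the Jaccard difference. Carry-over ranged from 14.0 to 31.9 and from −42.3 to −22.6, regions of 1 line from 325 to 1858 and from 37 to 197, promoter genes from 116 to 732 and from 8 to 48, and stronger regions from 7 to 25 and from 2 to 6. Same-numbered libraries were only weakly paired, with correlations of deviations of 0.069, 0.126 and 0.0788, although each correlated best with its own number. Replicate 2 also gave the longest list in HIF-1α/2α, in HIF-2α and in WT. The labels do not say whether libraries of the same number were handled together. With the replicate block limma called 26 and 6 regions, and the exact permutation test, with 8 relabellings, cannot go below 0.25. Of the 20 named regions, all 20 stayed past the threshold with quantile or loess normalization, 18 with normal scores, 15 with summit fragments and 8 without HIF-1α/2α replicate 2. Median summit fragments were 14 to 26 per library, and inferred depth was 0.253 to 0.536 fragments per base.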
